A study of Mus musculus with 4 samples.

Results

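The reactive astrocyte marker genes are a set of 10 transcripts that astrocytes raise after injury or inflammation: Lcn2, Serpina3n, Steap4, Cd44, Timp1, Ptx3, S1pr3, Cxcl10, Ggta1 and Emp1. Their values were taken from every probe set whose platform annotation gave 1 gene symbol and that symbol was a listed gene. Probe sets were found for 9 of the 10 genes, 17 in all, among 18193 genes on the array; no probe set was assigned to Ggta1, which was not analysed here. Astrocytes respond to tissue damage by a graded change of state called reactivity, in which cytokines such as those of the interleukin-6 family, interleukin-1, tumour necrosis factor and the interferons act through STAT, NF-kB and related factors. Work in mouse brain has sorted the induced genes into those shared by many injuries (pan-reactive, among them Lcn2, Serpina3n, Steap4, Cd44, Timp1, S1pr3 and Cxcl10), those preferentially induced by inflammation (A1, among them Ggta1) and those preferentially induced by ischaemia (A2, among them Ptx3 and Emp1). Astrocytes grown in serum are known to carry part of this programme without any injury.

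The astrocyte group consisted of 2 arrays of cerebral cortical astrocyte cultures from newborn C57BL6 mice, kept in basal medium Eagle that held 33 mM glucose and 10% fetal calf serum. The neuron group consisted of 2 arrays of cerebral cortical neuron cultures from C57BL6 fetuses of embryonic day 16, plated in the same medium and moved to 1% serum and 19.4 mM glucose with insulin, transferrin, progesterone, putrescine and selenite. The series design gives 20 days in vitro for astrocytes and 7 days for neurons, whereas the protocol text gives 1 common period close to that of the neurons. Cell type, donor age, medium, serum and, by the series design, time in culture all differ between the groups and cannot be told apart. No culture was injured or treated, so the data compare the marker genes between culture types and not between reactive and resting astrocytes. The titles call the arrays biological replicates; nothing says how many animals were pooled.

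Signals are MAS5 units, and background was set for each array at its brightest Bacillus subtilis control, which was 17 and 15 on the astrocyte arrays and 21 and 23 on the neuron arrays. Between 61.4% and 66.9% of measured probe sets exceeded it. Across tested genes the log2 values of replicate arrays correlated at 0.986 in astrocytes and 0.982 in neurons, against 0.620 to 0.644 between the groups. The labelled cell types were checked against their markers. All 12 neuron markers were lower in astrocytes; Tubb3, the neuronal beta-tubulin, had 68 and 63 in astrocytes, against 2875 and 3021 in neurons. The vesicle fusion gene Snap25 and the microtubule gene Dcx were under background in astrocytes (at least 255-fold and at least 180-fold lower; log2 -8.19 and -7.64, or -5.80 and -5.10 averaged over probe sets), and the brightest neuron marker, Stmn2, had 1465 and 1485 in astrocytes, against 5727 and 6022 in neurons. Of 14 tested astrocyte markers 10 were higher in astrocytes and 2 lower, where 31.1% and 31% of all tested genes were. The water channel gene Aqp4 had 4668 and 3859 in astrocytes, against 551 and 701 in neurons, and Mlc1, a membrane protein of astrocyte junctions, was 8.85-fold higher. The glutamate transporter gene Slc1a2 went the other way, with 431 and 379 in astrocytes, against 1832 and 1865 in neurons (adjusted p = 1.84e-06). Aldoc, the brain aldolase, had 1842 and 2076 in astrocytes, against 2574 and 3422 in neurons. Its call was lost without astrocytes replicate 1 (log2 -0.51) or 2 (-0.68) and without neurons replicate 2 (-0.39). It was also lost with no filter (adjusted p = 0.0550) and without probe sets that may match several transcripts (0.0625). Such probe sets are called ambiguous here, although the transcripts may be those of 1 gene. Astrocyte transcripts were thus present in the neuron cultures as well. Of the 12 neuron markers, 7, Stmn2 among them, exceeded background on both astrocyte arrays. In bulk cultures, fewer cells of a type and less RNA per cell cannot be told apart.

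Every listed gene that was bright enough to be tested was higher in astrocytes. A gene was tested if at least 2 of the 4 arrays reached the array's median signal, and it was read by its probe set with the highest mean. That left 8 of the 10 genes, and 8 were called higher in astrocytes by limma (Benjamini-Hochberg adjusted p under 0.05), where 31.1% of all 12040 tested genes were. Their log2 differences, astrocytes minus neurons on the scale of log2(signal + 12.5), ran between 0.80 for Cxcl10 and 4.09 for Emp1, with a median of 1.97, beside a median of -0.02 over all tested genes. For 3 of the 8 genes both neuron arrays lay at or under background, so the signals give only lower bounds, which are smaller than the fitted differences. With these genes at their bounds the median was 1.59. Of the 8 genes, 4 (Lcn2, Serpina3n, Timp1 and Cxcl10) reached the median on the astrocyte arrays alone and so entered the test only through the group in which they were high. Ptx3 and Emp1 reached it on both astrocyte arrays and 1 neuron array. Only Cd44 and S1pr3 would have been kept by the neuron arrays alone. The count of 8 is therefore a description. With no filter, all 9 genes with a probe set could be tested and 8 were called higher in astrocytes, where 18.4% of 18193 genes were; Cxcl10 then missed the threshold (adjusted p = 0.0753). The groups did not overlap for any of the 8 genes; 40.5% of tested genes were higher in astrocytes without overlap.

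**Figure D1:**
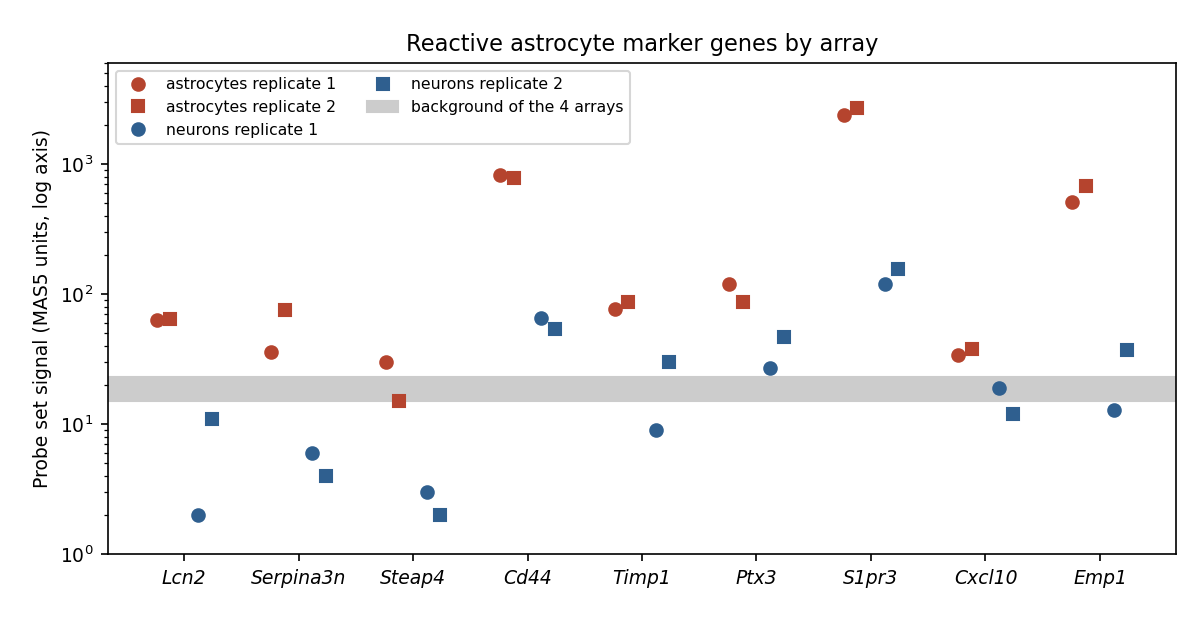
Signal of the brightest probe set of each listed gene (MAS5 units, log axis) on the 2 astrocyte arrays (red, left) and the 2 neuron arrays (blue, right), with the range of the array backgrounds, 15 to 23, shaded. Cd44, S1pr3, Ptx3 and, on 1 neuron array, Emp1 and Timp1 lie above background in neurons, while Steap4 exceeds it on 1 astrocyte array only; heights are not comparable between genes, since probe sets differ in brightness.

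Differences over 8-fold were measured for 3 genes that encode proteins of the plasma membrane, S1pr3, Emp1 and Cd44; 2.67% of all tested genes had such a difference in this direction. Lcn2, Serpina3n, Timp1 and Cxcl10 were too dim to show one on this scale: even a neuron signal of 0 would have given a fold of at most 6.08, 5.24, 7.55 and 3.88, so the genes cannot be ranked against each other. S1pr3, which encodes a G protein-coupled receptor of sphingosine 1-phosphate, had 2381 and 2687 in astrocytes, against 121 and 157 in neurons. The astrocyte values exceeded the neuron values many times over and the replicates were close, with a 16.9-fold difference (log2 4.08, SE 0.15, adjusted p = 2.65e-07). A second S1pr3 probe set, 1437173_at, had 221 and 202 in astrocytes, against 11 and 16 in neurons, which is at or under background there and gives a difference of at least 9.61-fold (adjusted p = 4.79e-06). The third, 1460661_at, was near background with 17 and 27 in astrocytes, against 3 and 4 in neurons, and was not tested.

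Emp1, a small membrane protein of the peripheral myelin protein 22 family, had 509 and 685 in astrocytes, against 13 and 37 in neurons. The neuron arrays differed from each other and straddled background, but both lay far below the astrocyte arrays (17.0-fold, log2 4.09, SE 0.30, adjusted p = 8.51e-06). The other Emp1 probe set, 1459171_at, was not above background on any array. Cd44, the hyaluronan receptor, had 833 and 777 in astrocytes, against 66 and 54 in neurons (11.3-fold, log2 3.50, SE 0.16, adjusted p = 6.06e-07). Its probe set 1434376_at had 663 and 573 in astrocytes, against 62 and 38 in neurons (10.3-fold, adjusted p = 3.24e-06). Both therefore placed the Cd44 transcript above background in neurons too. The probe set 1452483_a_at had 88 and 85 in astrocytes and 3 on each neuron array, at least 3.94-fold higher in astrocytes (adjusted p = 2.35e-05), and 1443265_at was at 1 or 2 on every array. On the offset scale, 0.872% of all tested genes had a larger fitted difference in this direction than Emp1, 0.889% a larger one than S1pr3 and 1.69% a larger one than Cd44.

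The genes of secreted proteins lay nearer to background, and for Lcn2, Serpina3n and Cxcl10 the data give only a lower bound of the difference. The log2 values printed beside the bounds are the fitted ones on the offset scale and are larger than the bounds. Lcn2 encodes lipocalin 2, a carrier of iron-binding siderophores released by reactive astrocytes. It had 63 and 64 in astrocytes, against 2 and 11 in neurons, where both values lay under background. The difference was at least 2.89-fold (log2 2.04, SE 0.30, adjusted p = 0.000432). Serpina3n, a secreted serine protease inhibitor, had 36 and 76 in astrocytes, against 6 and 4 in neurons. Its astrocyte arrays differed more, in proportion, than those of the other tested genes of the set, and neurons were again under background (at least 2.38-fold, log2 1.91, SE 0.33, adjusted p = 0.00120). Timp1, an inhibitor of matrix metalloproteinases, had 77 and 87 in astrocytes, against 9 and 30 in neurons, the higher neuron value lying above background. The groups differed by 3.12-fold (log2 1.64, SE 0.33, adjusted p = 0.00267).

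Ptx3, a long pentraxin of innate immunity, had 119 and 87 in astrocytes, against 27 and 47 in neurons. It was above background on all 4 arrays, with a 2.36-fold difference (log2 1.24, SE 0.26, adjusted p = 0.00385). A second Ptx3 probe set, 1456903_at, had 40 and 41 in astrocytes, against 21 and 19 in neurons (at least 1.84-fold, adjusted p = 0.0306). Cxcl10, the chemokine that attracts T cells through the receptor CXCR3, had 34 and 38 in astrocytes, against 19 and 12 in neurons. The values lay just above background in astrocytes and under it in neurons (at least 1.64-fold, log2 0.80, SE 0.26, adjusted p = 0.0274). Steap4, a metalloreductase that reduces iron and copper, had 30 and 15 in astrocytes, against 3 and 2 in neurons, and exceeded background on 1 astrocyte array alone. It was too dim for the main test; with no filter its log2 difference was 1.19 (SE 0.28, adjusted p = 0.0328). Its other probe set, 1425829_a_at, was under background on every array.

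**Figure D2:**
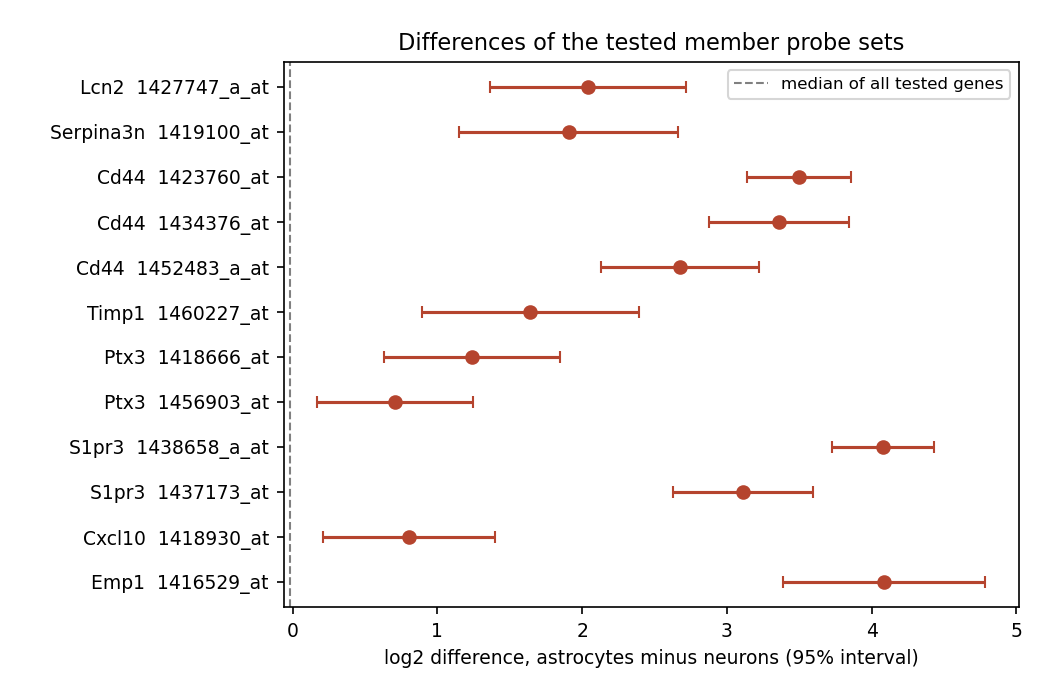
Log2 difference (astrocytes minus neurons, log2(signal + 12.5) scale) of each of the 12 tested probe sets of the listed genes, with 95% intervals from the limma fit; the dashed line is the median of all tested genes, -0.02. The probe sets of S1pr3, Cd44 and Emp1 lie between 2.68 and 4.09, and those of the other genes, several of them under background in neurons, between 0.71 and 2.04.

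The calls of the dimmer genes depended on which arrays were used. Without astrocytes replicate 1 or 2, 5 listed genes were called higher in astrocytes, and without neurons replicate 1 or 2, 6 were; of all tested genes 21.4%, 20.7%, 24.9% and 24.3% were called higher in these 4 fits. Cd44, S1pr3, Emp1 and Lcn2 passed with any array left out. Serpina3n was not called without neurons replicate 1 (adjusted p = 0.0555) or 2 (0.0651), and Timp1 without astrocytes replicate 1 (0.0838) or 2 (0.100). Ptx3 was not called without astrocytes replicate 1 (0.102) or 2 (0.0547) or neurons replicate 1 (0.0706). Cxcl10 was not called without astrocytes replicate 1 (0.0928) or 2 (0.123) or neurons replicate 2 (0.102). All differences kept their sign. With an offset 4 times as large, which damps dim signals more by construction, the log2 differences were 3.11 for Emp1, 1.01 for Lcn2, 0.92 for Serpina3n and 0.94 for Timp1, and with no offset and signals floored at background that of Serpina3n was 1.25.

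**Figure D3:**
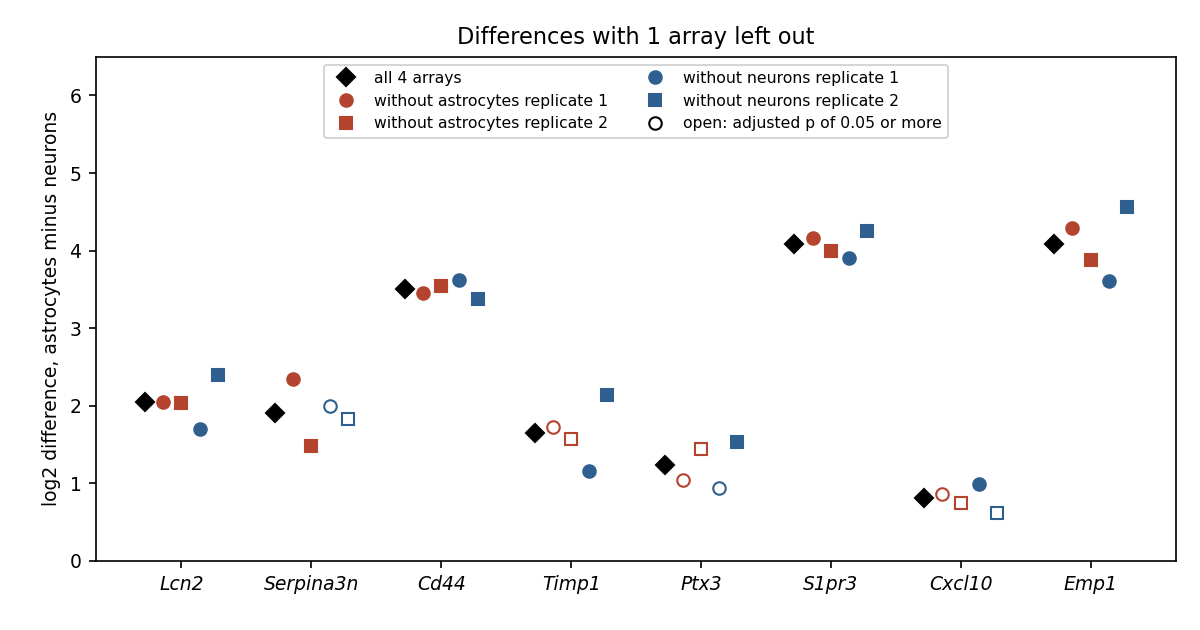
Log2 difference of the 8 tested genes with all 4 arrays (black) and with 1 astrocyte array (red) or 1 neuron array (blue) left out; open symbols mark an adjusted p of 0.05 or more. S1pr3, Cd44 and Emp1 stay at 3.38 or above, and open symbols occur for Serpina3n, Timp1, Ptx3 and Cxcl10.

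The promoter sequences were searched for letters recognised by factors that act in reactivity and for the TATA box, a general promoter element. RefSeq promoters (GRCm38.p6, 250 bases before to 50 after a transcript start) were matched for all 10 genes, 11 promoters in all, since Emp1 has 2 starts. The motifs were AP-1 (TGANTCA), STAT (TTCNNNGAA), C/EBP (TTGCNNAA), the interferon-stimulated response element (GAAA, any 2 bases, GAAA), the TATA box (TATAAA) and the NF-kB consensus, each on both strands. Shown are Cxcl10, with matches to 3 motifs, and the genes with the largest fitted differences on the offset scale, Emp1 (its upstream start) and S1pr3. Capitals mark the matches.
Cxcl10, chr5:92348840-92349139, minus strand: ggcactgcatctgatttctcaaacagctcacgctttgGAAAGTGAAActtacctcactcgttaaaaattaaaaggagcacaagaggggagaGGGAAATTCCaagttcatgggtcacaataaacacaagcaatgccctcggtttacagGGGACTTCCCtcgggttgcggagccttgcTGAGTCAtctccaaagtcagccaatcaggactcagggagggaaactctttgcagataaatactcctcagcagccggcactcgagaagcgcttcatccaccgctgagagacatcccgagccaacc
Emp1, chr6:135362681-135362980, plus strand: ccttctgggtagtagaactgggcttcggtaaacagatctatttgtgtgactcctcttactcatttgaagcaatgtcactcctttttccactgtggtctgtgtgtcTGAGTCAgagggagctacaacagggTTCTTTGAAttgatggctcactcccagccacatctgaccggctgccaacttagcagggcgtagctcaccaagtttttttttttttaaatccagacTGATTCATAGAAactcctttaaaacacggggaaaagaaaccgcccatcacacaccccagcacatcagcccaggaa
S1pr3, chr13:51408368-51408667, plus strand: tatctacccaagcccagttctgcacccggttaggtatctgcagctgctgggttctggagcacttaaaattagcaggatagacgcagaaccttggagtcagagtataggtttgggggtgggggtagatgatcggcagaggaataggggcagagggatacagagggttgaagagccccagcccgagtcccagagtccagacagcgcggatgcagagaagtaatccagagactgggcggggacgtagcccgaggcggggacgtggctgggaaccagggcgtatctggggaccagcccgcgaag
In Cxcl10 the capitals are an interferon-stimulated response element at -213 from the start site, NF-kB matches at -159 and -103 and an AP-1 match at -74. In Emp1 they are AP-1 matches at -145 and -25 and STAT matches at -120 and -22, the downstream AP-1 and STAT matches overlapping each other. The S1pr3 window held none of the 6 motifs, nor did those of Cd44, Timp1 and Serpina3n. Among the listed genes, C/EBP letters were found in Lcn2, Steap4, Ptx3 and Ggta1 and NF-kB letters in Steap4, Ptx3 and Cxcl10. Steap4, whose sequence is not shown, also held a STAT match and, like Ggta1, TATA box letters. It had 5 matches in all, against 4 in Cxcl10. Of all 32851 promoters of this length, 7.81% held the AP-1 letters, 8.30% STAT, 10.8% C/EBP, 3.44% the interferon element, 13.6% the TATA box and 4.51% NF-kB. A match describes these letters only and marks no site of binding.

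The other genes of the same programme were also mostly higher in astrocytes. Of 27 further reactive genes, 25 had a probe set and 22 were tested; 20 were called higher in astrocytes and 2 lower, where 31.1% and 31% of all tested genes were. Of the 22 genes, 11 reached the array median on the astrocyte arrays alone and so entered the test through the group in which they were high, which makes the count a description. The median log2 difference was 2.61, or 2.34 with the 6 genes under background in neurons at their bounds. All 6 further pan-reactive genes were higher. Cp, which encodes the copper protein ceruloplasmin, had 7246 and 8105 in astrocytes, against 8 and 102 in neurons (adjusted p = 1.85e-05). Gfap, the astrocyte intermediate filament, had 1744 and 2133 in astrocytes, against 2 and 109 in neurons (adjusted p = 0.000343). For both genes neurons replicate 2 was well above replicate 1: with neurons replicate 1 left out the log2 difference of Cp was 6.07, and with replicate 2 left out it was 8.55; for Gfap these differences were 4.00 and 7.06. The size also depended on the probe set: averaged over the probe sets of each gene, the log2 difference was 6.16 for Cp and 3.67 for Gfap, and without ambiguous probe sets that of Gfap was 2.79. Gfap was not called without astrocytes replicate 1 (adjusted p = 0.0646) or 2 (0.0721). Vim, the filament protein vimentin, was 5.16-fold higher in astrocytes (12518 and 11573, against 2465 and 2189 in neurons).

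Of the 9 further A1 genes with a probe set, 8 were tested, 7 of them higher in astrocytes and 1 lower. Psmb8, a subunit of the immunoproteasome, was at least 7.80-fold higher in astrocytes, and Fbln5, which encodes the elastic fibre protein fibulin 5, 8.11-fold. H2-D1, a class I histocompatibility gene, had 765 and 750 in astrocytes, against 113 and 199 in neurons (4.73-fold). Fkbp5, a glucocorticoid-induced co-chaperone, went the other way, with 32 and 37 in astrocytes, against 238 and 266 in neurons (log2 -2.49, SE 0.18, adjusted p = 8.01e-06). Of the 10 further A2 genes, 8 were tested, 7 higher in astrocytes and 1 lower. The membrane protein gene Tm4sf1 was at least 70.0-fold higher in astrocytes (log2 5.99, or 3.89 averaged over its probe sets) and Cd109, a surface co-receptor of transforming growth factor beta, 23.5-fold. The Cd109 difference was log2 3.95 without neurons replicate 1 and 5.17 without replicate 2. S100a10, the partner of annexin A2, was 1.97-fold higher in astrocytes. B3gnt5, a glycosyltransferase, was lower, with 237 and 218 in astrocytes, against 332 and 372 in neurons (log2 -0.60, adjusted p = 0.00733); it was not called without either astrocyte array (adjusted p = 0.0571 and 0.0821) without neurons replicate 2 (0.0628) or with its probe sets averaged (0.0894). The A1 and A2 genes were thus both mostly higher in astrocytes, with medians of 2.51 and 2.03; whether the lists differ was not tested.

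**Figure D4:**
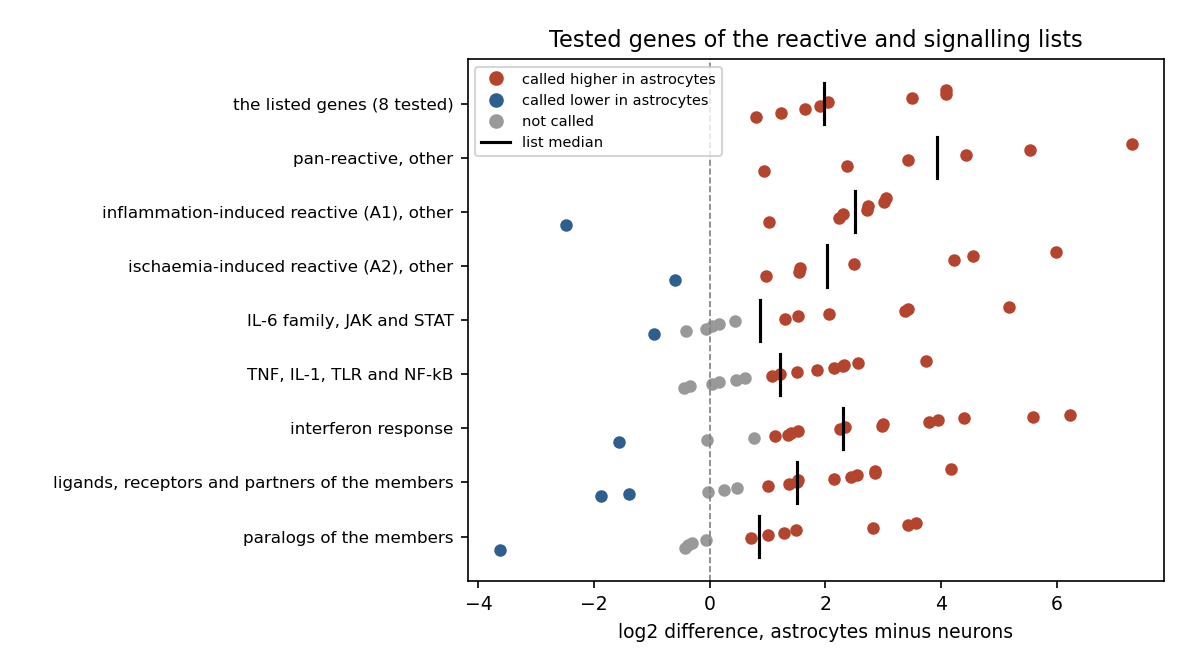
Log2 difference (astrocytes minus neurons) of each tested gene of the listed set, the other reactive genes and the signalling, partner and paralog lists; red points are called higher in astrocytes, blue lower, grey not called, and black bars are list medians. Medians lie between 0.86 for the paralogs and 3.93 for the other pan-reactive genes.

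Among the cytokine pathways that induce these genes, several receptors and induced factors were higher in astrocytes. Of the 14 interleukin-6 family, JAK and STAT genes with a probe set, 12 were tested, 6 higher in astrocytes and 1 lower (median 0.87). The shares of all tested genes were 31.1% and 31%. Counts for this and the following lists are descriptions. Some of their genes, such as C1qa and Foxc1, entered the test through the astrocyte arrays alone. Cebpd, a transcription factor induced by inflammatory cytokines, had 1632 and 1815 in astrocytes, against 23 and 52 in neurons (adjusted p = 9.29e-07, 36.2-fold), and Il6st, the signal-transducing receptor gp130, was 10.8-fold higher. Named after their values were seen, Socs3, a feedback inhibitor of STAT3 signalling, was 10.4-fold and Stat3 4.18-fold higher in astrocytes. Averaged over probe sets, the log2 differences were 3.29 for Cebpd (5.18 from the brightest probe set), 2.72 for Il6st (3.43), 2.35 for Socs3 (3.38) and 1.25 for Stat3 (2.06), and that of Socs3 was 1.31 without ambiguous probe sets. Lifr, the receptor of leukaemia inhibitory factor, was lower in astrocytes (222 and 173, against 391 and 402 in neurons; log2 -0.97, adjusted p = 0.000967). The cytokine genes, named after their values were seen, did not share a pattern. Clcf1, a ligand of this family that belongs to the A2 list, had 505 and 404 in astrocytes, against 10 and 15 in neurons (at least 20.6-fold higher, adjusted p = 8.95e-07; log2 4.22, or 3.03 averaged over probe sets and 3.08 without ambiguous ones). Lif had 54 and 47 in astrocytes, against 38 and 30 in neurons, and was not called (adjusted p = 0.132). Il6 and Osm were too dim to be tested, at 2 and 8 in astrocytes, against 3 and 1 in neurons for Il6, and at 28 and 23 in astrocytes, against 14 and 30 in neurons for Osm.

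Of the 20 tumour necrosis factor, interleukin-1, Toll-like receptor and NF-kB genes with a probe set, 15 were tested, 9 higher in astrocytes and 0 lower in limma, also 0 at an unadjusted p under 0.05 (median 1.21). Of the cytokines, Il1b had 61 and 18 in astrocytes, against 67 and 40 in neurons, and was not called (adjusted p = 0.378), while Tnf and Il1a were too dim to be tested. Tlr3, the receptor of double-stranded RNA, was 13.4-fold and Myd88, the adaptor of most other Toll-like receptors, 5.91-fold higher in astrocytes. Nfkbia, which encodes the NF-kB inhibitor I-kappa-B-alpha and is itself induced by NF-kB, had 710 and 880 in astrocytes, against 897 and 660 in neurons (adjusted p = 0.868). Among 17 interferon response genes with a probe set, 16 were tested, 13 higher in astrocytes and 1 lower (median 2.30). Beside this list and the one before, 31.1% of all tested genes were called higher and 31% lower. Ifitm3, an antiviral membrane protein, had 3816 and 4838 in astrocytes, against 22 and 84 in neurons (74.7-fold), with a log2 difference of 5.48 without neurons replicate 1 and 6.96 without replicate 2. Ifit3, an interferon-induced protein, had 2089 and 2173 in astrocytes, against 21 and 46 in neurons (48.4-fold, adjusted p = 5.21e-07). Cxcl10, itself an interferon-induced gene, was at least 1.64-fold higher on the same arrays. Ifngr2, a chain of the interferon gamma receptor, was lower in astrocytes, with 47 and 86, against 310 and 147 in neurons (log2 -1.57, adjusted p = 0.00487). It was not called without astrocytes replicate 1 (adjusted p = 0.160) or 2 (0.0683) or neurons replicate 1 (log2 -0.42, adjusted p = 0.120), and with values floored at background its log2 difference was -0.87.

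Binding partners of the listed proteins differed in both directions. Of 20 such genes with a probe set, 15 were tested, 10 higher in astrocytes and 2 lower (median 1.51). The shares of all tested genes were 31.1% and 31%. Msn and Ezr encode moesin and ezrin, which tie CD44 to the actin cytoskeleton. Msn had 1552 and 1550 in astrocytes, against 69 and 81 in neurons (17.9-fold), and Ezr 2180 and 2075 in astrocytes, against 258 and 313 in neurons (7.21-fold). Averaged over probe sets their log2 differences were 3.35 for Msn (4.16 from the brightest) and 1.38 for Ezr (2.85). Lrp2, the endocytic receptor megalin, which binds lipocalin 2, was 7.28-fold higher in astrocytes (179 and 170, against 3 and 30 in neurons). Its log2 difference was 2.14 if neurons replicate 1 was left out and 3.59 if replicate 2 was, and it was not called without astrocytes replicate 1 (adjusted p = 0.0626) or 2 (0.0602). Without ambiguous probe sets it was 1.79. Slc22a17, a proposed lipocalin 2 receptor named after its values were seen, was lower in astrocytes (388 and 408, against 1103 and 1033 in neurons; log2 -1.40, adjusted p = 2.12e-05). Spns2, which exports sphingosine 1-phosphate from cells, was also lower in astrocytes (22 and 12, against 88 and 103 in neurons; log2 -1.89, adjusted p = 0.000262). Named after its values were seen, Sphk1, which makes sphingosine 1-phosphate and belongs to the A2 list, was at least 3.40-fold higher in astrocytes. The other sphingosine kinase gene, Sphk2, was not called (56 and 48 in astrocytes, against 57 and 50 in neurons, adjusted p = 0.905). Sgpl1, the sphingosine 1-phosphate lyase, was 5.84-fold higher in astrocytes (adjusted p = 2.99e-06). Both were also named after their values were seen.

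Relatives of the listed genes did not all follow them. Of the sphingosine 1-phosphate receptors, S1pr1 (153 and 150 in astrocytes, against 174 and 209 in neurons), S1pr2 (93 and 56, against 89 and 66) and S1pr4 (37 and 24, against 43 and 42) were not called, with log2 differences of -0.31, -0.07 and -0.37, and S1pr5 was under background on every array. S1pr2 depended on the probe set: its log2 difference was 0.87 averaged over probe sets (adjusted p = 0.00458) and 1.82 without ambiguous ones (0.000415), both called higher in astrocytes, and 0.02 after quantile normalization (0.958). S1pr3, at 4.08, was called under every alternative. Among the metalloproteinase inhibitors, Timp3 was 11.9-fold higher in astrocytes (2864 and 2463, against 181 and 248 in neurons) and Timp2 2.44-fold (4187 and 4315, against 1677 and 1797), while Timp4 was not called (198 and 157, against 348 and 167; adjusted p = 0.251). Emp3 was 10.8-fold higher in astrocytes (348 and 420, against 29 and 20) and Emp2 1.64-fold (662 and 724, against 379 and 457); Emp2 was not called without astrocytes replicate 1 (adjusted p = 0.0504) or 2 (0.0717). Steap2 was 2.83-fold higher (185 and 158, against 50 and 55). Steap1 was 2.00-fold higher (58 and 53, against 14 and 31) but was not called without astrocytes replicate 1 (adjusted p = 0.157) or 2 (0.130) or neurons replicate 1 (0.0820) or with no filter (0.0750), and Steap3 was too dim to be tested. The neuronal pentraxin gene Nptx1 was lower in astrocytes, with 4 and 13, against 311 and 188 in neurons, at least 15.1-fold lower (log2 -3.63, or -2.56 averaged over probe sets). Over the 12 tested relatives, 7 were higher in astrocytes and 1 lower (median 0.86), where 31.1% and 31% of all tested genes were.

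The tested markers of microglia and fibroblasts were mostly higher in astrocytes, as the listed genes were, and those of the oligodendrocyte lineage were mostly lower. For each count below, 31.1% of all tested genes were called higher and 31% lower. Of 15 microglia and macrophage markers 10 were tested and 8 were higher in astrocytes, and the summed signal of the list was 1140 and 1136 in astrocytes, against 271 and 313 in neurons. C1qa had 124 and 156 in astrocytes and 2 on each neuron array, and Ctss 295 and 272 in astrocytes, against 3 and 28 in neurons. The log2 difference of C1qa was 3.39, or 2.66 floored at background, and that of Ctss 2.87 without neurons replicate 1 and 4.25 without replicate 2. Aif1 and Itgam were too dim to be tested, at 13 and 25 and at 8 and 4 in astrocytes. Of 12 fibroblast and meningeal markers 11 were tested, 7 higher in astrocytes and 1 lower, with sums of 7202 and 7619 in astrocytes, against 2288 and 1659 in neurons. Islr, a leucine-rich repeat protein of mesenchymal cells, had 2465 and 2689 in astrocytes, against 29 and 32 in neurons (60.2-fold), and the transcription factor gene Foxc1 368 and 326 in astrocytes, against 8 and 13 in neurons (at least 15.8-fold). Col1a1 had 41 and 103 in astrocytes, against 27 and 24 in neurons, and Col3a1 180 and 154 in astrocytes, against 69 and 13 in neurons; with no filter neither was called (adjusted p = 0.131 and 0.0593). Col1a1 was also not called without astrocytes replicate 2 (0.162) or either neuron array (0.219 and 0.257), nor Col3a1 without either astrocyte array (0.170 and 0.142), and the log2 difference of Col3a1 was 2.81 without neurons replicate 1 and 1.14 without replicate 2. Thy1, which neurons express as well, was the brightest of the list, with 1638 and 1814 in astrocytes, against 1535 and 808 in neurons, and was not called (adjusted p = 0.0628), except without neurons replicate 1 (0.0159). Lum, the proteoglycan lumican, was lower, with 23 and 17 in astrocytes, against 40 and 45 in neurons (adjusted p = 0.0259), a call that was lost whichever array was dropped (adjusted p of 0.0541 to 0.111), with no filter (0.0730) and after quantile normalization (0.0530). Of 10 endothelial and mural markers 4 were tested and 2, the contractile genes Tagln and Acta2, were higher in astrocytes. Tagln had 2691 and 3331 in astrocytes, against 6 and 95 in neurons, with a log2 difference of 4.81 without neurons replicate 1 and 7.34 without replicate 2. Acta2 had 4544 and 4791 in astrocytes, against 87 and 361 in neurons; its log2 difference was 3.65 without neurons replicate 1, 5.56 without replicate 2, 3.50 averaged over probe sets and 2.40 without ambiguous ones. The sums were 7417 and 8278 in astrocytes, against 214 and 604 in neurons, while Pecam1 was under background on every array. Nearly all of the astrocyte sums came from Tagln and Acta2. Of 9 oligodendrocyte lineage markers with a probe set 7 were tested, 2 higher in astrocytes and 4 lower (median -0.88). The sums were 5550 and 6140 in astrocytes, against 5705 and 4933 in neurons, and most of the astrocyte sums came from Olig1. Pdgfra, the receptor of oligodendrocyte precursors, had 19 and 21 in astrocytes, against 1177 and 1302 in neurons (log2 -5.27, or -3.46 averaged over probe sets and -5.95 floored at background). Mbp, the myelin basic protein, had 16 and 16 in astrocytes, against 420 and 431 in neurons (log2 -3.94, or -3.08 averaged and -4.69 floored). Cnp, an enzyme of myelin, was 3.29-fold higher in astrocytes. Olig1 had 3500 and 3997 in astrocytes, against 2899 and 1895 in neurons, a call lost without either astrocyte array (adjusted p = 0.142 and 0.227), without neurons replicate 2 (0.134), with no filter (0.0886) and without the mean-variance trend (0.0512), and Olig2 was not called (adjusted p = 0.214). Itgam, like Pecam1, was above background on no array, and a signal under background does not show that a transcript was present. Cd44, Timp1, Serpina3n and Emp1 are expressed by several of the cell types of these lists as well. The part of such cells in the differences was not tested.

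The neuron arrays also differed in genes of the astrocyte cultures. Emp1, Timp1, Gfap and Cp lay under background in neurons replicate 1 and above it in replicate 2, at 13 and 37, 9 and 30, 2 and 109, and 8 and 102. Other genes called higher in astrocytes, named after their values were seen, went the opposite way. Col1a2 had 63 in neurons replicate 1 and 20 in replicate 2, Col3a1 69 and 13, Bst2 47 and 22, and Aspg 27 and 13. Of the 8 tested listed genes, 5 were higher in neurons replicate 2 than in replicate 1, counting values under background. Lcn2 and Serpina3n were under background on both neuron arrays, where their values give no order, and Cd44 was above it on both, at 66 and 54. The summed signal of 15 astrocyte markers was 24381 and 24832 in astrocytes, against 10282 in neurons replicate 1 and 11272 in replicate 2. These markers did not shift together between the neuron arrays, and Aldoc, itself higher in neurons, made up most of the rise. Aldoc had 2574 in replicate 1 and 3422 in replicate 2, and Aqp4 551 and 701. Slc4a4 fell from 983 to 747 and Fgfr3 from 397 to 286, while Mlc1 had 276 on both. Whether astrocytes carried over into the second neuron culture set these values was not tested.

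The genes whose centred log2 values over the 4 arrays lay nearest to the mean of the 8 tested genes were Tst, Mif4gd, Sft2d2, Scara3 and Bambi, with root mean square differences of 0.023 to 0.041. Tst encodes the mitochondrial sulphurtransferase rhodanese and Bambi a decoy receptor of the transforming growth factor beta family. Tst had 321 and 361 in astrocytes, against 44 and 62 in neurons, and Bambi 280 and 297 in astrocytes, against 35 and 51 in neurons. With 4 arrays in 2 groups, such likeness reflects mainly the size of the group difference.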

How the data were processed

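The authors deposited MAS5 intensity values, per the submitters' processing notes (version not given in the sources used here). These are whole numbers on a linear scale whose mean, 2% trimmed at each end, was 150 on every array. Of 45037 probe sets that are no controls, 34945 carried 1 gene symbol, 932 several and 9160 none, and 34741 symbols were updated by Entrez identifier from the RefSeq gene table. Signals were taken as log2(signal + 12.5), an offset equal to the median of the arrays' 25th percentiles. The filter kept 25019 probe sets. The test was limma 3.58.1 under R 4.3.3 (lmFit, eBayes with trend, two-sided, Benjamini-Hochberg over kept probe sets), with 2 residual and 6.27 prior degrees of freedom. The code was run on data simulated from the fitted variance model. Such data meet the assumptions of the test by construction, so the run cannot show that the calls hold here. The number of arrays limits the precision (median SE 0.18); an exact permutation test of 2 against 2 arrays cannot go below 0.333. Fold changes are on the offset scale, which shrinks the signal ratios of dim genes. For Lcn2, Serpina3n and Cxcl10, under background in neurons, the fitted fold was still larger than the lower bound. Where a whole group lay at or under background (27 Bacillus subtilis controls), the fold is "at least", from mean log2 signals without the offset. The listed genes and the gene lists were chosen with earlier results of these data known. Beside them the text names, per list, the 2 largest differences in the commoner direction, the largest in the opposite one and the highest mean, fixed markers, relatives of the listed genes and the 5 nearest profiles; others are marked. Alternatives varied the offset, filter, scaling, trend, choice of probe sets, replicate block and arrays.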

Additional observations from a re-analysis of the deposited data

How the results depend on the processing

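With 4 arrays and no detection calls, signal near background limits Lcn2, Serpina3n, Steap4, Timp1, Ptx3 and Cxcl10 most. All listed genes kept their direction under every alternative in which they were tested. With a filter at the 75th percentile only 3 listed genes (Cd44, S1pr3 and Emp1) were left, all called higher in astrocytes, and 5 of their probe sets, because fewer probe sets were tested. With 1 array left out, 5 to 6 listed genes were called higher in astrocytes, 8 to 9 of their probe sets, 17 to 19 of the other reactive genes and 2493 (without astrocytes replicate 2) to 2992 of all genes, against 8, 12, 20 and 3749 with all arrays; fewer arrays leave 1 residual degree of freedom. With no filter Cxcl10 missed the threshold (adjusted p = 0.0753). An offset 4 times as large, values floored at background, quantile normalization, no trend and averaged probe sets left 8 listed genes called. Of the 149 tested genes of the other lists, the larger offset moved 57 by over 1.5 times, and 0 of them lost the call or changed sign. Without probe sets that may match several transcripts, of the same gene or of others, 7 listed genes were called. Lcn2 has no other probe set, and the log2 difference of S1pr3 was 3.11 from its next probe set. The replicate numbers of the groups carry no stated pairing: the differences between replicates 1 and 2 correlated at -0.06 between the groups across genes. With the replicate block 8 listed genes and 3727 of all genes were called higher in astrocytes.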
